A study of Mus musculus with 8 samples.

Results

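The genes described here encode the nuclear subunits of the mitochondrial respiratory chain and of the ATP synthase. They were taken by symbol, as every gene of the deposited table whose name begins with *Nduf* followed by a, b, c, s or v, with *Uqcr*, with *Cox* followed by 4 to 8, or with *Atp5*. The rule found 88 of 23467 genes. Of these, 36 were placed in complex I, 8 in complex III, 20 in complex IV and 15 in complex V. The remaining 9 matched by name but are not subunits: 7 are *Ndufaf* assembly factors of complex I, and *Atp5s* and *Atp5sl* are named after the ATP synthase without being part of its core enzyme. *Ndufa4* and its relative *Ndufa4l2* carry the name of complex I and are counted with complex IV, where the NDUFA4 protein is now placed.

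The respiratory chain passes electrons from NADH and succinate to oxygen across the inner mitochondrial membrane. Complex I oxidizes NADH, complex III passes electrons from ubiquinol to cytochrome c, and complex IV, cytochrome c oxidase, hands them to oxygen. These 3 complexes pump protons, and complex V, the ATP synthase, lets the protons back and makes ATP. Most subunits are encoded in the nucleus, as are all of those described here, and several have isoforms used in particular tissues or at low oxygen. The liver is rich in mitochondria, and hepatocytes rely on them more than many other cells do.

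RNA came from hepatoblasts, the bipotent progenitors of the fetal liver, isolated from E14.5 mouse livers of a mixed B6;129 background. They were kept undifferentiated on collagen (iHB), differentiated to hepatocytes with oncostatin M at 12.5 ng per ml for 5 days (iHP), or differentiated to biliary epithelial cells (BECs) on Matrigel for 14 days (iBEC). Control cells were labelled wild type, and L1L2_Alb cells carried Lats1-/-;Lats2f/fl;Alb-cre, in which *Lats1* is missing in the whole animal and Cre, driven by the albumin promoter, removes *Lats2* in cells that express albumin. LATS1 and LATS2 are the kinases of the Hippo pathway that restrain the coactivators YAP and TAZ. There was 1 control library per stage, with 1 L1L2_Alb library of iHBs and 2 each of iHPs and iBECs, 8 libraries in all. Nothing in the labels tells whether paired libraries were made from separate embryos or cultures, so a p-value here measures the spread between these libraries, which may be technical.

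The values are RPKM, in which read numbers are divided by transcript length and sequencing depth, as deposited by the authors. The libraries held 18436865 to 33229075 reads, as recovered from the steps between the values of short genes. The targeted genes went against the labels: *Lats1* was at 10.6, 11.2 and 5.38 RPKM in control iHB, iHP and iBEC, and at 13.9, 22.7, 7.12, 9.69 and 9.91 RPKM in the L1L2_Alb libraries of iHB, iHP (replicates 1 and 2) and iBEC (replicates 1 and 2). *Lats2* was higher in all 5 of them than in the control of the stage. The table has 1 value per gene, which need not cover the deleted part, so this does not check the deletion, and every L1L2_Alb value below is of a library labelled so. The genotypes did differ in other genes: *Krt7*, a keratin of bile ducts, was higher in all 5 L1L2_Alb libraries than in the control of the stage (62.3 to 400 RPKM in controls, 319 to 1470 RPKM in L1L2_Alb), and *Hnf4a*, a transcription factor of hepatocytes, was lower in all 5 (48.4 to 99.5 against 20.2 to 45.6 RPKM). The other hepatocyte markers did not all fall with it. *Ttr* (217 to 371 RPKM in controls, 33.0 to 112 RPKM in L1L2_Alb) and *Alb* were lower in all 5. *Apoa1* was higher than the control in L1L2_Alb iHB (8670 against 2451 RPKM) and both iHP libraries (8351 and 6225 against 4249 RPKM). It was lower in both iBEC libraries. *Cps1* was higher in L1L2_Alb iBEC replicate 1 (233 against 123 RPKM) and lower in the others. The biliary markers did not rise together either. *Krt19* was higher in all 5 as well, but *Spp1* was lower in all 5 (1706 to 23271 against 428 to 10760 RPKM). *Epcam* and *Sox9* were higher in some L1L2_Alb libraries and lower in others. Of the markers of hepatocytes and hepatoblasts, *Alb* (524 to 6162 RPKM), *Apoa1* (2451 to 8670 RPKM) and *Afp* (779 to 4219 RPKM) were high in every library. *Dlk1*, a marker of hepatoblasts, was low in every one (0.999 to 6.40 RPKM), and *Cps1* of the urea cycle ran from 2.24 RPKM in L1L2_Alb iHB to 340 RPKM in control iHP. Markers of other cells were present too, with a sum over 5 macrophage and leukocyte genes of 593 to 2595 RPKM and a sum over 6 mesenchymal genes of 649 to 3869 RPKM. In such bulk libraries fewer cells of a type and less RNA per cell cannot be told apart.

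Members were tested when their mean over the libraries reached 1 RPKM, which 84 of 88 did. *Cox7b2*, *Cox8b* and *Cox8c*, isoforms of testis or muscle, were listed at 0 in all 8 libraries, where 3 reads is the limit that a count of 0 allows in each. *Cox6a2*, the heart and muscle isoform of COX6A, was below the filter with 0 to 25 reads per library. Each of these 4 belongs to complex IV. All 36 members of complex I, 8 of complex III, 15 of complex V and 9 of the other group were tested.

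Levels per length differed by complex, with complex I lowest and complex V highest. The median over a complex of each subunit's mean RPKM was 87.9 in complex I, 152 in complex III, 175 in complex IV and 250 in complex V, against 11.2 over all 13421 genes tested. The 9 factors had a median of 6.38 RPKM. Within a library, the order of the 4 medians was the same in 7 of 8 libraries, and in L1L2_Alb iHP replicate 2 complex III (211 RPKM) was slightly above complex IV (207 RPKM). The most abundant member was *Atp5b*, the catalytic beta subunit of the F1 head, with 446 to 832 RPKM. *Cox4i1*, the main isoform of the largest nuclear subunit of complex IV, followed with 399 to 725 RPKM, and *Cox6b1* with 414 to 740 RPKM. In complex I the range of mean levels went from 12.5 RPKM for *Ndufa11* to 254 RPKM for *Ndufa3*, and in complex III from 40.8 RPKM for *Uqcrfs1*, the Rieske iron-sulphur protein, to 291 RPKM for *Uqcrh*. No subunit of complex V had a mean below 124 RPKM (*Atp5d*). In every library 32 of the 84 tested members were at 100 RPKM or more.

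**Figure D1:**
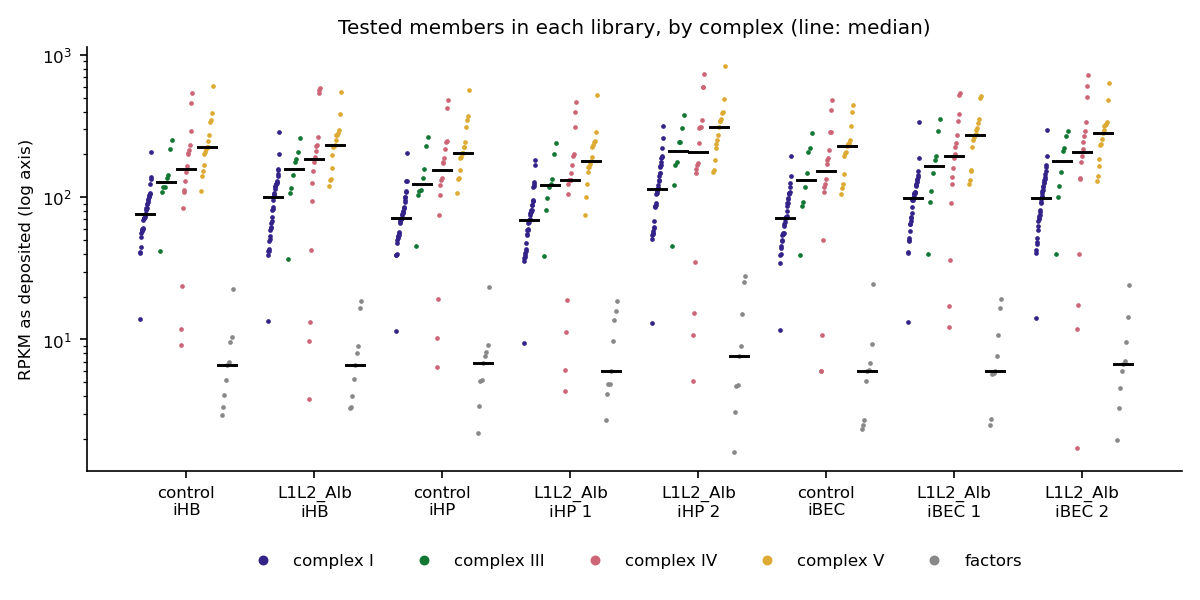
RPKM as deposited (log axis) of the 84 tested members in each of the 8 libraries, with 1 point per gene, coloured by complex, and a black line at the median; "factors" are the 7 assembly factors with *Atp5s* and *Atp5sl*. The medians rise from complex I to complex V, all 4 complexes sit higher in L1L2_Alb iHP replicate 2 than in replicate 1, and the factors lie far below the subunits.

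The range over the libraries was counted for members only, so the counts below cannot be set against all genes or genes of like level. The highest library was less than 2 times the lowest for 59 of 84 tested members, less than 3 times for 78, and less than 1.5 times for 14, among them *Ndufa10*, *Uqcrc1*, *Uqcrfs1*, *Cox5a* and *Atp5a1*. The range was widest for *Cox4i2* (9.89 times), *Ndufa4l2* (8.13 times) and *Cox6b2* (7.10 times), all isoforms of complex IV, and next for *Ndufb6* (3.94 times). Together the tested subunits of the 4 complexes, without the factors, took 1.62% of the summed RPKM in control iHB, 1.51% in control iHP and 1.404% in control iBEC. In the L1L2_Alb libraries they took 1.73% in iHB, 1.505% and 1.99% in iHP, and 1.84% and 1.76% in iBEC.

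The main question of the design is whether cells labelled as lacking LATS1/2 differ from control cells. Fitted across the 3 stages with limma on log2(RPKM + 1), 3 of 84 members were higher in L1L2_Alb cells at an adjusted p under 0.05 and 0 were lower, while 6.2% of all genes tested were called higher and 3.37% lower, 9.57% in all. At an unadjusted p under 0.05 there were 13 of 84 members, whose 95% intervals excluded 0, against 26.3% of all genes. The members called were *Ndufb6* and *Ndufa7*, accessory subunits of complex I, and *Ndufaf3*, an assembly factor of complex I. None was in complexes III, IV or V, where the lowest adjusted p was 0.283, 0.0771 and 0.154. After upper-quartile scaling the count was again 3, of the same genes, against 4.56% of all genes called higher and 4.3% lower.

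*Ndufb6* encodes an accessory subunit of the membrane arm of complex I. It was at 83.4, 77.8 and 66.4 RPKM in control iHB, iHP and iBEC, at 157 RPKM in L1L2_Alb iHB, at 169 and 262 RPKM in L1L2_Alb iHP, and at 120 and 167 RPKM in L1L2_Alb iBEC. All 5 L1L2_Alb libraries were above all 3 controls. The log2 fold change was 1.16 (SE 0.218, adjusted p = 0.0167 from limma), or 2.23-fold with a 95% interval from 1.58 to 3.15, and 1.04 after upper-quartile scaling (adjusted p = 0.0230). It passed the threshold in 13 of 15 alternative settings. It did not pass when iHBs (adjusted p = 0.0687) or iHPs (adjusted p = 0.1002) were left out, over settings whose adjusted p ran from 0.00847 to 0.1002.

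*Ndufaf3* takes part in the early assembly of complex I and was much less abundant. It stood at 10.4, 9.14 and 9.36 RPKM in control iHB, iHP and iBEC, against 18.7 RPKM in L1L2_Alb iHB, 18.7 and 25.2 RPKM in L1L2_Alb iHP, and 16.7 and 14.3 RPKM in L1L2_Alb iBEC. Again the genotypes did not overlap. Its log2 fold change was 0.88 (SE 0.191, adjusted p = 0.0281 from limma), a 1.84-fold difference, with 0.77 after upper-quartile scaling (adjusted p = 0.0463). It passed in 10 of 15 settings (adjusted p from 0.0214 to 0.159) and not when low genes were kept in (adjusted p = 0.0522), without L1L2_Alb iBEC replicate 1 (adjusted p = 0.0527) or without any 1 stage.

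*Ndufa7*, an accessory subunit of complex I, was at 92.5, 83.8 and 73.9 RPKM in the controls of iHB, iHP and iBEC. In L1L2_Alb cells it was at 155 RPKM in iHB, 125 and 195 RPKM in iHP, and 138 and 145 RPKM in iBEC, so the genotypes were separate here as well. The log2 fold change was 0.86 (SE 0.188, adjusted p = 0.0285 from limma), or 1.82-fold, and 0.75 after upper-quartile scaling (adjusted p = 0.0416). It passed in 10 of 15 settings (adjusted p from 0.0142 to 0.118) and not when low genes were kept in (adjusted p = 0.0510), without L1L2_Alb iBEC replicate 2 (adjusted p = 0.0649) or without any 1 stage.

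A further 5 members had an adjusted p between 0.05 and 0.1 and are given as values. *Ndufs7*, a core subunit that holds an iron-sulphur cluster of complex I, was at 71.6, 71.4 and 54.7 RPKM in the controls of iHB, iHP and iBEC, and at 120, 81.7, 110, 109 and 101 RPKM in L1L2_Alb iHB, iHP and iBEC (log2 fold change 0.68, SE 0.182, adjusted p = 0.0527). *Cox6a1*, the widely expressed isoform of COX6A in complex IV, was at 294, 250 and 289 RPKM in the controls and at 538, 309, 595, 386 and 510 RPKM in the L1L2_Alb libraries (log2 fold change 0.74, SE 0.247, adjusted p = 0.0991). For both genes every L1L2_Alb library was above every control. *Cox6b2*, the testis isoform of COX6B, was at 23.6, 19.2 and 5.96 RPKM in the controls and at 42.3, 18.9, 34.9, 36.2 and 39.8 RPKM in the L1L2_Alb libraries, with the largest positive difference of any member (log2 1.27, SE 0.388, adjusted p = 0.0771) but an L1L2_Alb iHP replicate 1 below its control. *Ndufb4* and *Ndufa12*, both accessory subunits of complex I, had log2 fold changes of 0.59 and 0.64 (adjusted p = 0.0923 and 0.0947).

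**Figure D2:**
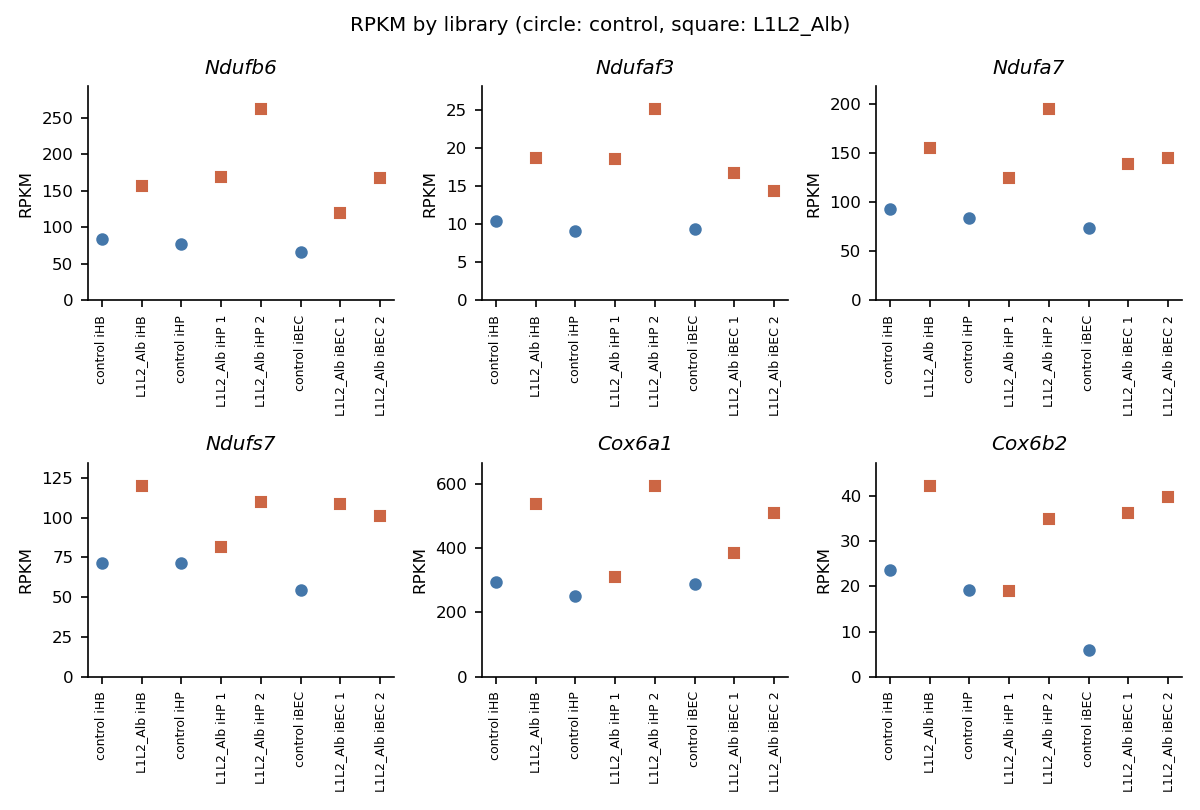
RPKM (linear axis from 0) of 6 members in the 8 libraries, with control libraries as blue circles and L1L2_Alb libraries as orange squares. For *Ndufb6*, *Ndufaf3*, *Ndufa7*, *Ndufs7* and *Cox6a1* all squares lie above all circles, and for *Cox6b2* the square of iHP replicate 1 (18.9 RPKM) lies level with its control (19.2 RPKM).

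The stretches upstream of 4 members are shown because 3 of them passed the genotype test and the other, *Cox6a1*, holds several of the motifs searched. They are the 200 bases before the RefSeq start (GRCm38.p6), written 5′ to 3′ on the strand of the gene, and capitals mark motif letters. *Ndufb6* lies at chr4:40279422-40279621 (minus strand), *Ndufaf3* at chr9:108567437-108567636 (minus strand), *Ndufa7* at chr17:33824372-33824571 (plus strand, the first of 2 starts) and *Cox6a1* at chr5:115348959-115349158 (minus strand).
Ndufb6: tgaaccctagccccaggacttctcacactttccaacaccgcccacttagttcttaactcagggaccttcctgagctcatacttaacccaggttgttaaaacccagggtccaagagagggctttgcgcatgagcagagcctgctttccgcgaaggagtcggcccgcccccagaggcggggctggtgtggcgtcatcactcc
Ndufaf3: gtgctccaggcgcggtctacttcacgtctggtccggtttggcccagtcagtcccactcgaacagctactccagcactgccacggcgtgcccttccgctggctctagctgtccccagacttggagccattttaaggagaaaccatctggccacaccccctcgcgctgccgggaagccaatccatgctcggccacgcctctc
Ndufa7: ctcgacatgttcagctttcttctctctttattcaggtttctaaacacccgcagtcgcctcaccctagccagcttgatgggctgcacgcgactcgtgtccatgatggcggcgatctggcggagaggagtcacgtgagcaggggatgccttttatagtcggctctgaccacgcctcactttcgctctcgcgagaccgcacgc
Cox6a1: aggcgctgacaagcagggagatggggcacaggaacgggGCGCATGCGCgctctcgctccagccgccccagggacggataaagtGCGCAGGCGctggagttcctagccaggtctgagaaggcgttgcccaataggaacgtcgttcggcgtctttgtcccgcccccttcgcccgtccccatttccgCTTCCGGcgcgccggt

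Letters of 5 motifs were searched on both strands in the promoter windows of RefSeq, from 250 bases before a start to 50 after it, which were given for 70 of 88 members (75 promoters). Matches of different motifs did not overlap in any member promoter; in *Cox6a1* the NRF1 letters matched both strands of 1 stretch, shifted by 1 base. The motif of NRF1, nuclear respiratory factor (GCGCANGCG), was found in 21 of 75 member promoters, or 28.0%, against 6.25% of all 32851 promoters. That of ETS factors such as GABP (CCGGAAG) was found in 20.0% against 8.86%, and that of YY1 (AAGATGGC) in 12.0% against 2.75%. The motif of estrogen-related receptors (TCAAGGTCA) was in 1.33% against 0.423%. The motif of TEAD, through which YAP and TAZ reach DNA (GGAATG), was in 12.0% of member promoters and 14.7% of all. By complex, NRF1 letters were in 9 of 34 promoters of complex I, 2 of 5 of complex III, 1 of 14 of complex IV and 7 of 16 of complex V. *Cox6a1* holds NRF1 letters in 2 separate stretches and ETS letters at 1. *Ndufb6* holds ETS letters upstream of the printed stretch, and *Ndufaf3* and *Ndufa7* (first start) hold none of the 5. Tested members with NRF1 letters had a median genotype difference of 0.18 (20 genes) and those without one of 0.24 (48 genes). For ETS letters it went the other way, with 0.27 (15 genes) and 0.19 (53 genes). For YY1 letters it was 0.20 (9 genes) and 0.22 (59 genes), and for TEAD letters 0.22 (8 genes) and 0.21 (60 genes). A match of letters is a description and does not show that a factor binds.

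Over the members without regard to a threshold, 13 of 84 had L1L2_Alb libraries that all lay above all controls (9.18% of all genes tested did), and 0 lay wholly below (3.7%). After upper-quartile scaling 7 lay above (8.54%) and 0 below (6.46%). Those 7 were *Ndufb6*, *Ndufaf3*, *Ndufa7*, *Ndufs7*, *Ndufa12*, *Ndufb4* and *Atp5s*. Set against the control of its own stage, a member was higher in all 5 L1L2_Alb libraries in 17 of 84 cases (22.9% of all genes tested) and lower in all 5 in 0 (10.1%); after upper-quartile scaling these were 15 (17.2%) and 4 (16.7%). Of the 17 as deposited, 10 were in complex I, 4 in complex IV, 1 in complex V (*Atp5e*, the epsilon subunit) and 2 among the factors.

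The median log2 fold change of the members for genotype was 0.19, beside 0.058 over all genes tested, and 71 of 84 members were on the higher side, against 55.8% of all genes. Upper-quartile scaling, which brings the percentile 75 of the genes above 0 to the same value in every library, moved the medians to 0.075 for members and -0.042 for all genes, with 59 of 84 members on the higher side. Relative to all genes the members stood 0.13 higher as deposited and 0.12 higher after scaling. Among genes of like level this was so in the lowest class alone: as deposited, the median was 0.24 for all genes and 0.20 for the 48 members at a mean of 100 RPKM or more, 0.24 and 0.23 (16 members) at 50 to 100 RPKM, 0.094 and 0.056 (11 members) at 10 to 50 RPKM, and -0.034 and 0.18 (9 members) under 10 RPKM. By complex, the medians as deposited were 0.22 in complex I, 0.15 in complex III, 0.22 in complex IV and 0.16 in complex V, and after scaling 0.10, 0.039, 0.10 and 0.046. The 7 core subunits of complex I, which carry the flavin and iron-sulphur clusters, had a median of 0.13, and its 29 accessory subunits one of 0.22. The 95% interval of a member's fold change had a median of 0.47 to either side on the log2 scale, from 0.35 for *Uqcrfs1* to 1.33 for *Ndufa4l2*, so most of these differences were smaller than the tests could tell from 0.

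These medians hid a split between libraries. In L1L2_Alb iHB the median member differed from its control by 0.068 (all genes -0.086), with 53 of 84 higher. In iHPs the members went apart: in replicate 1 the median was -0.13 (all genes 0.014) with 24 of 84 higher than the control, and in replicate 2 it was 0.54 (all genes -0.030) with 72 of 84 higher. In both iBEC libraries 79 of 84 members were higher than the control, with medians of 0.31 and 0.33, while all genes also stood higher, by 0.22 and 0.26. After upper-quartile scaling the 5 medians were 0.075, -0.24, 0.42, 0.16 and 0.083. The counts of members higher than the control were then 54, 19, 70, 63 and 53 of 84. L1L2_Alb iHP replicate 1 therefore lay on the low side and replicate 2 on the high side on both scales.

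**Figure D3:**
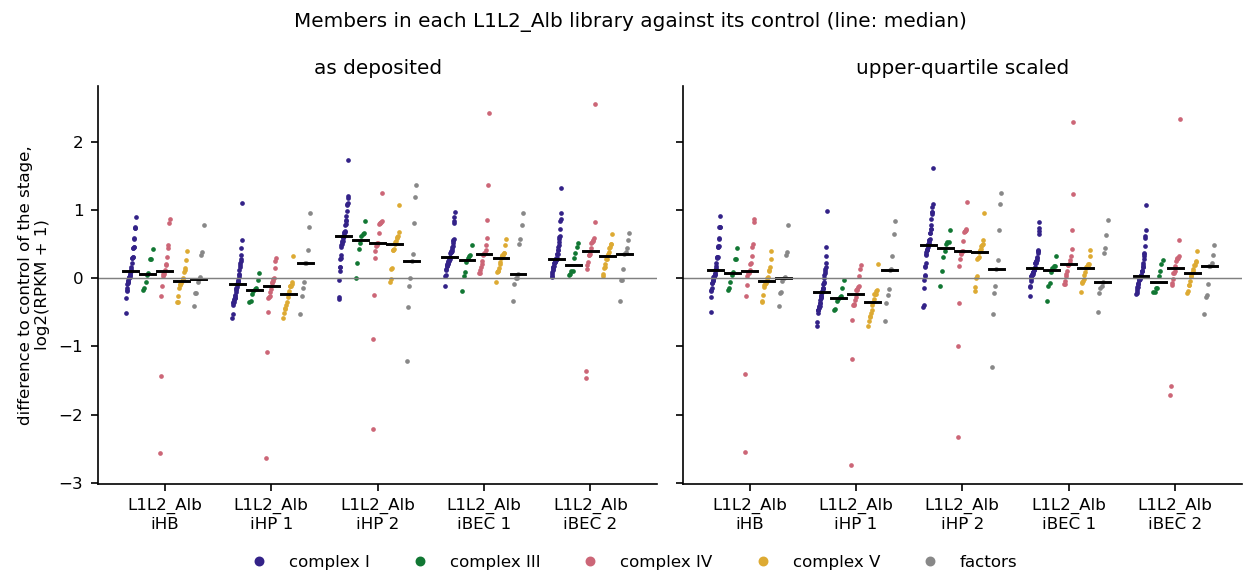
Difference of each tested member in an L1L2_Alb library to the control of its stage, on the log2(RPKM + 1) scale, as deposited (left) and after upper-quartile scaling (right), with 1 point per gene, coloured by complex, and a black line at the median. Medians of the 4 complexes are below 0 in iHP replicate 1 and above 0 in iHP replicate 2 on both scales. In the iBEC libraries they are lower after scaling, and that of complex III in replicate 2 is then below 0 (-0.054).

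The gap between the L1L2_Alb iHP libraries ran through nearly all subunits. Of the 84 tested members, 81 were higher in replicate 2 than in replicate 1 (50% of all genes tested were), including 36 of 36 in complex I, 8 of 8 in complex III, 16 of 16 in complex IV and 15 of 15 in complex V. The median difference was 0.65 on the log2 scale for members and 0.00018 for all genes. By complex it was 0.67, 0.64, 0.66 and 0.65. The exceptions were *Ndufaf4* (-1.16), *Ndufaf1* (-0.76) and *Atp5sl* (-0.28), all in the group of factors, whose median difference was 0.15. The 2 L1L2_Alb iBEC libraries differed by a median of 0.022 over the members, with 47 of 84 higher in replicate 2.

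Other genes of similar kind shared the gap in iHPs. It was 0.63 over 90 genes of the cytosolic ribosome, 0.33 over 76 of the mitochondrial ribosome, 0.35 over 38 of the proteasome, 0.50 over 4 of complex II and 0.29 over 13 of the TCA cycle. Over 34 assembly factors of the chain outside the rule it was 0.11. The gap also differed between classes of gene length. Among all genes whose length could be recovered, the median difference was 0.089 for genes under 500 bases, 0.40 for genes of 500 to 1000 bases and -0.18 for genes over 4000 bases, and members are short, with a median of 679 bases against 2455 for genes tested. The 14 members under 500 bases had a median of 0.79 and the 38 of 500 to 1000 bases one of 0.66, and among genes of at least 100 RPKM the median was 0.42 for all and 0.68 for members. L1L2_Alb iHP replicate 1 was the shallowest library (18436865 reads, against 21308633 in replicate 2). The part of length, level or depth in the gap was not tested.

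**Figure D4:**
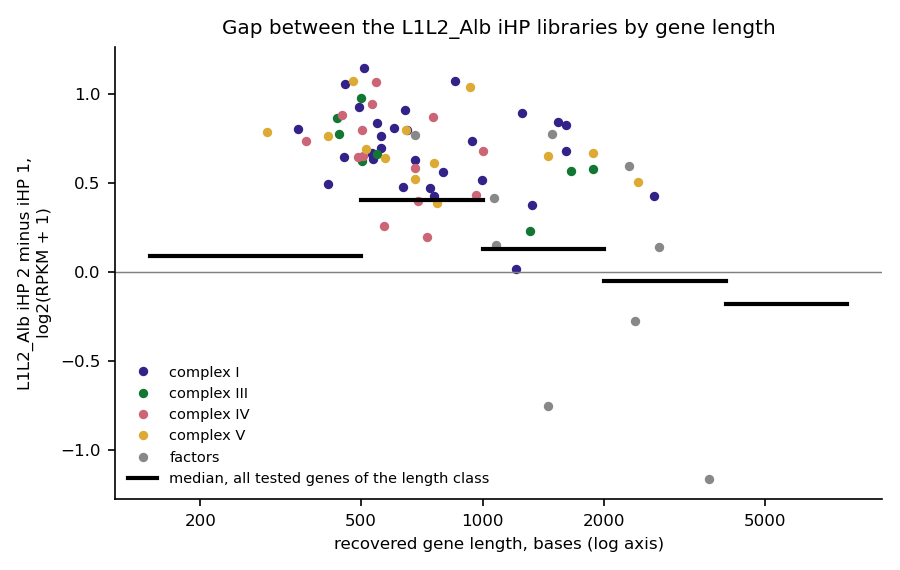
Difference of L1L2_Alb iHP replicate 2 minus replicate 1 on the log2(RPKM + 1) scale against recovered gene length in bases (log axis), for the tested members whose length could be recovered, coloured by complex; black bars give the median over all tested genes of each length class. Nearly all members lie above 0 and most above the bar of their class, and the 3 below 0 are *Ndufaf4*, *Ndufaf1* and *Atp5sl*.

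Ratios within a library do not depend on the scaling between libraries. The summed RPKM of complex I was 0.769, 0.762 and 0.802 times that of complex V in control iHB, iHP and iBEC. It was 0.954 times in L1L2_Alb iHB, 0.887 and 0.901 times in L1L2_Alb iHP, and 0.878 and 0.854 times in L1L2_Alb iBEC. Every L1L2_Alb library was above every control, also with *Ndufb6* and *Ndufa7* left out (controls 0.717 to 0.761, L1L2_Alb 0.782 to 0.871) and with medians in place of sums (controls 0.311 to 0.347, L1L2_Alb 0.350 to 0.430). The L1L2_Alb iHP libraries, which differed so much in level, gave nearly the same ratio. Complex IV to complex V behaved alike with sums (controls 0.765 to 0.807, L1L2_Alb 0.829 to 0.920) but overlapped with medians (0.667 to 0.759 against 0.664 to 0.796). Complex III to complex V overlapped with sums (0.294 to 0.345 against 0.324 to 0.342). With medians it overlapped too (0.5661 to 0.6084 against 0.6045 to 0.6857), but all 5 L1L2_Alb libraries were above their own control. Complex I to complex IV overlapped with sums (0.994 to 1.006 against 0.949 to 1.070) and with medians (0.458 to 0.482 against 0.479 to 0.548). With *Ndufb6*, *Ndufa7*, *Ndufa4l2* and *Cox4i2* left out, its sums were above their own control in 1 of 5. These ratios were looked at after the values had been seen and carry no test.

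In complex V, the 5 subunits of the F1 head had a median genotype difference of 0.17 and the 10 of the membrane sector and stalks one of 0.15, and 0 of 15 were called. *Atp5b* was at 604, 567 and 446 RPKM in the controls and at 549, 524, 832, 516 and 633 RPKM in the L1L2_Alb libraries (log2 fold change 0.17, adjusted p = 0.689). *Atp5a1*, the alpha subunit, was at 348, 311 and 253 RPKM against 273, 244, 345, 280 and 283 RPKM (-0.077, adjusted p = 0.847, and 0.026 without iHBs). *Atp5e* had the largest difference of the complex, 0.53 (SE 0.212, adjusted p = 0.154), with 226, 187 and 238 RPKM in the controls and 299, 234, 397, 334 and 325 RPKM in L1L2_Alb cells. The c subunit, which forms the rotating ring, is encoded by 3 genes for the same mature protein. *Atp5g3* gave 38.8% to 49.4% of their summed RPKM, *Atp5g2* 32.5% to 45.3% and *Atp5g1* 15.9% to 19.2%. The share of *Atp5g2* was 36.3%, 32.5% and 35.7% in the controls and 39.8%, 39.3%, 43.7%, 45.3% and 42.1% in the L1L2_Alb libraries, above all controls, while its own log2 fold change of 0.30 did not pass (adjusted p = 0.453). *Atp5g3* stood on the other side, with a log2 fold change of -0.19 (adjusted p = 0.589) and a value below the control in 4 of 5 L1L2_Alb libraries.

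In complex III, *Uqcrc1*, a core protein, was at 109, 104 and 86.3 RPKM in control iHB, iHP and iBEC and at 115, 81.9, 122, 92.1 and 119 RPKM in L1L2_Alb cells (log2 fold change 0.0997, adjusted p = 0.801, and -0.015 after upper-quartile scaling). *Uqcrfs1* was the steadiest member by its interval, with 41.8, 45.1 and 39.0 RPKM in the controls and 36.8, 38.5, 45.2, 40.02 and 40.2 RPKM in L1L2_Alb cells. Its log2 fold change was -0.075, with a 95% interval from -0.43 to 0.28. In complex I, *Ndufs1*, the large iron-sulphur subunit, had 44.6, 39.4 and 34.5 RPKM in the controls against 39.3, 40.6, 54.6, 41.2 and 40.4 RPKM (log2 fold change 0.13, adjusted p = 0.703). *Ndufv1*, which binds the flavin and NADH, had 52.4, 47.5 and 44.1 RPKM against 50.5, 35.8, 58.0, 51.4 and 48.3 RPKM (0.027, adjusted p = 0.950, and -0.086 after upper-quartile scaling). In complex IV, *Cox5a* and *Cox5b*, which are found in all tissues, had log2 fold changes of 0.24 (adjusted p = 0.438) and -0.066 (adjusted p = 0.865). None of these core subunits passed the test, and their intervals reached 0.35 to 0.51 on either side of the estimate.

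Isoform pairs of complex IV were then set side by side. *Ndufa4l2*, which replaces NDUFA4 in some cells and is known to rise at low oxygen, was at 83.4, 74.9 and 49.8 RPKM in control iHB, iHP and iBEC. It was at 13.3 RPKM in L1L2_Alb iHB, 11.2 and 15.4 RPKM in L1L2_Alb iHP, and 91.0 and 17.4 RPKM in L1L2_Alb iBEC. Of the 5 L1L2_Alb libraries 4 lay below all controls, and iBEC replicate 1 lay above all of them. The log2 fold change was -1.69 (SE 0.581, adjusted p = 0.108 from limma), the most negative of any member, and it did not pass. Without L1L2_Alb iBEC replicate 1 it was -2.18 (adjusted p = 0.00425), and without the iBEC stage -2.48 (adjusted p = 0.00445), over alternatives with an adjusted p from 0.00425 to 0.501. As a share of *Ndufa4* and *Ndufa4l2* together it was 27.8%, 25.7% and 18.9% in the controls, 28.8% in L1L2_Alb iBEC replicate 1, and 4.82% to 5.67% in the other L1L2_Alb libraries. *Ndufa4* itself stayed between 195 and 305 RPKM (log2 fold change 0.18, adjusted p = 0.645).

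*Cox4i2*, the isoform of COX4 used in lung and at low oxygen, had the same shape at a lower level. It was at 11.9, 10.3 and 6.00 RPKM in the controls, at 3.79 RPKM in L1L2_Alb iHB, 4.33 and 5.10 RPKM in iHP, and 17.1 and 1.73 RPKM in iBEC. Its log2 fold change was -0.75 (SE 0.565, adjusted p = 0.458), and -1.23 without L1L2_Alb iBEC replicate 1 (adjusted p = 0.0176). It made up 2.15%, 2.07% and 1.23% of COX4 transcripts in the controls and 0.238% to 3.16% in L1L2_Alb cells, the rest being *Cox4i1*, which did not pass (log2 fold change 0.16, adjusted p = 0.701). Counting error was largest here, with 30 reads in the lowest library and an error of 18.3%, against a median of 2.93% over the members with recovered reads.

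Like these isoforms, mesenchymal markers were below all controls in L1L2_Alb iHB and iHP and above control iBEC in L1L2_Alb iBEC replicate 1. *Dcn*, decorin of fibroblasts, was at 88.9, 42.6 and 115 RPKM in the controls, 5.28 RPKM in L1L2_Alb iHB, 3.11 and 7.10 RPKM in iHP, and 309 and 71.4 RPKM in iBEC. *Pdgfrb*, a receptor of pericytes and stellate cells, was at 20.4, 9.80 and 11.1 RPKM against 5.21, 2.79, 3.19, 15.4 and 8.12 RPKM. In L1L2_Alb iBEC replicate 2 markers and isoforms parted in places. There *Cox4i2* was at its lowest of the 8 libraries (1.73 RPKM). *Dcn* and *Lum* (39.8 RPKM) lay above control iHP (11.8 RPKM for *Lum*), and the other markers lay below all controls. The sum over the 6 mesenchymal markers ran from 2377 to 3869 RPKM in the controls, was 3511 RPKM in L1L2_Alb iBEC replicate 1, and ran from 649 to 1573 RPKM in the other L1L2_Alb libraries, with 0 of the 6 at 0 in any library. Their part in the isoform values was not tested. Of genes known to answer to low oxygen, *Car9* had a log2 fold change of -0.18 (adjusted p = 0.873), *Egln3* one of -0.66 (adjusted p = 0.131) and *Vegfa* one of 0.91 (adjusted p = 0.0402), which was the 1 call in a list of 7 that also holds the ATPase inhibitor *Atpif1*, and which was lost after upper-quartile scaling (0.80, adjusted p = 0.0755). By library, *Egln3* was at 55.6, 54.3 and 53.7 RPKM in the controls and at 27.8, 28.5, 23.3, 63.7 and 42.7 RPKM in L1L2_Alb cells. *Car9* was at 11.1, 13.1 and 3.38 RPKM against 4.93, 4.76, 4.19, 16.6 and 9.59 RPKM. *Vegfa* and *Hif1an* were higher than the control of the stage in all 5 L1L2_Alb libraries, *Hif1a* in 4 and *Bnip3* in 2. A part of low oxygen in the isoform values was not tested.

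**Figure D5:**
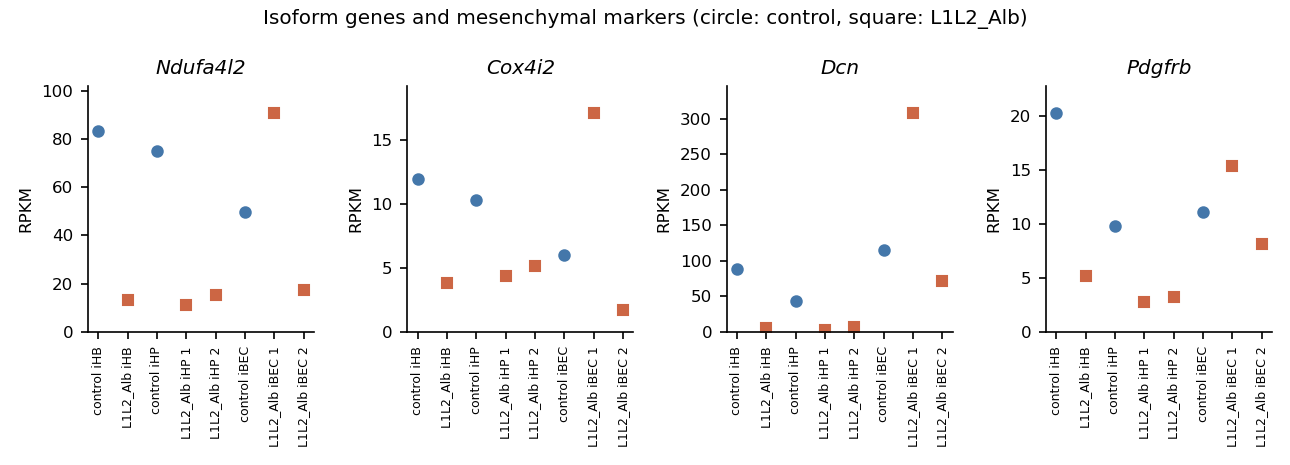
RPKM (linear axes from 0) of *Ndufa4l2* and *Cox4i2* beside the mesenchymal markers *Dcn* and *Pdgfrb* in the 8 libraries, with controls as blue circles and L1L2_Alb libraries as orange squares. In all 4 panels the square of iBEC replicate 1 stands high (91.0 RPKM for *Ndufa4l2*, 309 RPKM for *Dcn*), and the squares of iHB and iHP are low.

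In the other isoform groups, *Cox6b2* gave 1.42% of COX6B transcripts in control iBEC and 3.87% to 6.90% in the other libraries. *Cox7a1*, the muscle isoform of COX7A, was at 6.08 to 12.2 RPKM and 2.33% to 4.25% of its group, while markers of striated muscle were at or near 0 in most cases (*Ckm* at most 0.192 RPKM, *Myog* at 0 in all libraries, *Tnnt2* at 2.25 to 26.7 RPKM). *Cox7a2*, the liver form, and *Cox7a2l*, which helps supercomplexes form, took 50.4% to 60.2% and 37.1% to 47.3%. *Cox6a2* took at most 0.451% of COX6A. *Cox7b* (94.0 to 168 RPKM) and *Cox8a* (148 to 310 RPKM) were the only members of their groups above 0. For genotype, *Cox7a1*, *Cox7a2*, *Cox7a2l*, *Cox7b* and *Cox8a* had log2 fold changes of 0.18, 0.45, 0.32, 0.024 and 0.44, and 0 of the 5 passed. *Cox7b* changed sign after upper-quartile scaling, to -0.091.

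Differentiation was compared next, with the genotypes together. From iHB to iHP, 0 of 84 members were called, as were 0% of all genes tested; at an unadjusted p under 0.05 there were 0 members and 1158 genes (8.63%), and after upper-quartile scaling 0 members were called and 2 genes. The largest values were 0.42 for *Atp5s* and 0.31 for *Cox7b*, and -0.63 for *Cox6b2* and -0.33 for *Cox7a1*, with an adjusted p of at least 0.769. The median over the members was -0.039 as deposited (all genes -0.15) and 0.090 after scaling (all genes -0.031), so its sign depended on the scale. Relative to all genes it was 0.11 and 0.12 higher, beside 0.13 and 0.15 for the cytosolic ribosome.

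From iHB to iBEC, 0 of 84 members were called, against 5.72% of all genes (2.94% higher and 2.78% lower), and 0 members had an unadjusted p under 0.05, against 25% of all genes. *Ndufa4l2* (0.63, adjusted p = 0.606) and *Uqcrq* (0.48, adjusted p = 0.350) had the largest positive differences, and *Cox6b2* (-0.79, adjusted p = 0.332) and *Ndufaf4* (-0.39, adjusted p = 0.528) the most negative. Without L1L2_Alb iBEC replicate 1 the value of *Ndufa4l2* turned to -0.18. *Uqcrq*, a small subunit of complex III, was at 144, 157 and 221 RPKM in control iHB, iHP and iBEC and at 176 RPKM in L1L2_Alb iHB, 125 and 246 RPKM in iHP, and 195 and 271 RPKM in iBEC. As deposited, the members had a median of -0.0049 and 41 of 84 were on the higher side. All genes had a median of -0.25 with 29.3% on the higher side. After upper-quartile scaling the members had a median of 0.28 with 77 of 84 on the higher side. All genes then had a median of -0.0045 with 49.6% on the higher side. There, 5 of 84 members had an unadjusted p under 0.05 from limma (19% of all genes), with 0 called. Relative to all genes the members were 0.25 higher as deposited and 0.28 higher after scaling. This was not particular to them: the cytosolic ribosome stood 0.25 and 0.29 higher and complex II 0.24 and 0.27 higher. The mitochondrial ribosome (0.068 and 0.094) and the proteasome (0.0011 and 0.027) stood less high. In the controls alone, iBEC minus iHB was -0.12 over the members and -0.44 over all genes as deposited, and 0.29 and -0.090 after scaling. After scaling, 72 of 84 members and 5742 of 13421 genes were higher in iBEC.

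Between L1L2_Alb iBECs and L1L2_Alb iHPs, the comparison with 2 libraries on each side, 0 of 84 members were called, against 3.67% of all genes (3.16% higher and 0.507% lower), and 0 had an unadjusted p under 0.05, against 18.8% of all genes. *Ndufa4l2* (1.54, adjusted p = 0.280) and *Ndufv3* (0.62, adjusted p = 0.316) were the most positive, and *Ndufaf1* (-0.62, adjusted p = 0.403) and *Ndufb6* (-0.57, adjusted p = 0.452) the most negative. *Ndufv3*, an accessory subunit near the flavin site, was at 59.5 and 61.3 RPKM in iHP and 107 and 81.7 RPKM in iBEC, which did not overlap. Both iBEC libraries were above both iHP libraries in 10 of 84 members (25.4% of all genes tested) and below in 4 (24.6%), the iHP pair being wide apart. After upper-quartile scaling 17 members were above (31.3%) and 1 below (18.4%). The median over the members was then 0.23 with 71 of 84 on the higher side, beside 0.11 and 57 as deposited. All genes had a median of 0.097 with 57.7% on the higher side after scaling, beside -0.013 and 49.2% as deposited. The cytosolic ribosome had a median of 0.25 after scaling, with 79 of 90 genes on the higher side. The interval of a member reached a median of 0.81 to either side. Whether the genotype difference changed with the stage was tested with the moderated F test of limma on the 6 conditions. It called 0 of 84 members and 0 of 13421 genes. At an unadjusted p under 0.05 there were 733 genes (5.46%) and 1 member, *Cox6b2* (adjusted p = 0.758 from limma).

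The rest of the pathway gave few calls by the genotype test, beside 6.2% of all genes called higher and 3.37% lower. Of complex II, whose 4 subunits are all nuclear, 0 of 4 passed (median log2 fold change 0.11), and of the electron carriers *Cyc1* and *Cycs* 0 of 2. Among 34 assembly factors outside the rule 2 were higher: *Cox17*, the copper chaperone of complex IV, with 93.2, 85.1 and 81.0 RPKM in the controls and 155, 144, 224, 135 and 138 RPKM in L1L2_Alb cells (log2 fold change 0.86, adjusted p = 0.0317), and *Cox18*, which inserts COX2 into the membrane (0.78, adjusted p = 0.0293). After upper-quartile scaling *Cox18* passed (adjusted p = 0.0428), *Cox17* did not (adjusted p = 0.0504), and *Selrc1* (now *Coa7*), an assembly factor of complex IV, was called lower (-0.86, adjusted p = 0.0445, and 0.0708 as deposited). Of 12 regulators of mitochondrial genes tested 0 passed, among them *Nrf1*, *Gabpa*, *Esrra*, *Yy1* and *Tfam*, and *Ppargc1a* and *Ppargc1b* were below the filter. The TCA cycle had 0 of 13 called with a median of 0.081, the mitochondrial ribosome 1 of 76 with 0.13 (0 after upper-quartile scaling, lowest adjusted p = 0.0615), the cytosolic ribosome 0 of 90 with 0.26, and the proteasome 0 of 38 with 0.13. The 13 mitochondrially encoded subunits could not be analysed, since 0 of them were matched by symbol or older symbol to a line of the deposited table.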

How the data were processed

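RNA of 8 libraries (TruSeq RNA v2, HiSeq) was read from the deposited table, which holds a symbol and 8 values in each line. The unit was inferred as RPKM: values of short genes deposited by the authors moved in whole steps of 1 read, which also gave depth. Per the labels, the submitters' processing notes name Bowtie 0.12.2 and mm8; counting tool and annotation are not given in the sources used here. Whole reads (tolerance 0.02) came out for 75 members. Reads for 78.5% of tested genes were recovered, too few for a count model. Of 23471 entries, 4 of 2 repeated symbols were left out. Columns were mapped to samples by title.

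log2(RPKM + 1) of the 13421 genes that averaged 1 RPKM or more was fitted with limma 3.58.1 in R 4.3.3 (eBayes with trend, two-sided, Benjamini-Hochberg over all genes, threshold 0.05). Stage was a block and genotype the effect, with 4 residual degrees of freedom. L1L2_Alb iBEC against iHP and the F test used 6 conditions, with 2. Per-stage differences to the 1 control carry no test. The fit was tested on simulated data. Named were up to 5 members per direction past the threshold, or otherwise the 2 furthest, the isoform groups and 8 core subunits; other members named were chosen after their values were seen. Members and lists were chosen with earlier results of these data known. Promoters are RefSeq's (GRCm38.p6). Tables and plots used Python 3.11.15, numpy 2.4.6, pandas 2.3.3 and matplotlib 3.10.9. Counting errors cover counting only.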

Additional observations from a re-analysis of the deposited data

Results flagged for a closer look

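In each case below the L1L2_Alb libraries of one stage all lay on one side of their control and those of another stage all on the other side, as deposited. After upper-quartile scaling 4 of the 11 kept opposite sides (both of *Cox5b*, that of *Atp5b* and that of the median of complex V) and the other 7 did not. These differences were not tested for the gene alone, the F test across stages called 0 members, and iHB has 1 L1L2_Alb library, so its side rests on that library and its control. Values are differences between stages in the L1L2_Alb minus control log2(RPKM + 1) value. Over all genes tested, the median of that value was -0.086 in iHB as deposited. It was 0.22 and 0.26 in the iBEC libraries, so genes at large also stood lower in iHB than in iBEC. After upper-quartile scaling these medians were -0.079, 0.089 and 0.047. The share of all genes on opposite sides is not given here, so the flags cannot be called particular to these members. The iBEC minus iHB difference was 0.40 for *Cox7b*, 0.28 for *Atp5g1*, 0.41 for *Ndufs1*, 0.22 for *Ndufv1*, 0.22 for *Uqcrfs1*, 0.38 for *Cox5b*, 0.50 for *Atp5a1* and 0.49 for *Atp5b*. For the median of complex V it was 0.36, from -0.040 in iHB to 0.32 in iBEC. *Ndufs1* also differed by 0.43 between iHP and iHB, and *Cox5b* by 0.65 between iBEC and iHP. For each of them the iHB value was on the low side of the control except in the last, where iHP was.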

How the results depend on the processing

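The count of members called for genotype (3) became 1 with no filter on low values, 0 without the iHB stage, 0 without the iHP stage, 8 at an adjusted p under 0.1 and 1 with a change of at least 2-fold. Leaving out 1 L1L2_Alb library at a time gave 2 to 4. Shares of all genes called are given for the main and upper-quartile settings only, so these counts cannot be set against all genes. The genes called changed too. Without L1L2_Alb iBEC replicate 1, and without the iBEC stage, *Ndufa4l2* and *Cox4i2* were called lower and *Ndufaf3* was not called. Fewer libraries are fitted without a stage, and the cause of the other changes was not tested. Counts in the other comparisons were 0 under every setting, including the replicate block for L1L2_Alb iBEC against iHP, which called 0 members. Same-numbered libraries did not deviate together (r = -0.022 over 13421 genes). That value cannot tell whether they shared an embryo or culture, since a small shared part could be hidden by other differences. In all, 66 counts kept their side and 5 moved.

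Signs of small genotype changes turned. *Cox7b* went to -0.091 with upper-quartile scaling, -0.21 with quantile normalization, -0.038 without iHPs, -0.038 without iBECs and from -0.088 to 0.11 over settings without 1 library (-0.0033 without L1L2_Alb iBEC replicate 2). *Ndufv1* went to -0.086, -0.18 and, without iBECs, -0.055, and ranged from -0.066 to 0.14 without 1 library. *Uqcrc1* went to -0.015, -0.12 and, without iBECs, -0.0022. With quantile normalization *Ndufa4* went to -0.029, *Ndufs1* to -0.068 and *Cox5a* to -0.015. *Atp5g1* went to 0.019 without iHBs and 0.070 without iHPs, *Cox5b* to 0.11 without iHPs, and *Atp5a1* to 0.026 without iHBs; without 1 library they ranged from -0.081 to 0.088, -0.12 to 0.0031 and -0.15 to 0.00090, each highest without L1L2_Alb iHP replicate 1. *Ndufa4l2*, iBEC against iHB, ranged from -0.18 without L1L2_Alb iBEC replicate 1 to 0.98 without replicate 2. The ratios of complexes were tried with medians and without 4 named members, settings chosen after seeing the data. Counting error was largest for *Cox4i2* (18.3% in its lowest library), *Cox7a1* (15.6%) and *Ndufaf6* (11.0%), and comparisons with controls rest on 1 control library per stage.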
